A study of Mus musculus with 6 samples.

Results

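Central carbon metabolism was followed in bone marrow progenitors of platelet-forming and red cells, called megakaryocyte-erythroid progenitors (MEP), through 43 listed genes of glucose uptake, glycolysis, pyruvate dehydrogenase, the pentose phosphate pathway and the tricarboxylic acid (TCA) cycle. A gene was measured when a probe set of the array carried its symbol and no other, and its probe set of highest mean over the 6 arrays stood for it. This gave 38 of the 43 genes, among 22180 genes named on the array. Aldoa and Tkt shared their probe set with another symbol, and for Gpi1, Eno1 and G6pdx no probe set was named in the annotation used, so these 5 carry no value below. RNA came from sorted MEP of T-bet knockout mice (3 arrays) and of wild-type C57BL/6 mice (3 arrays), all labelled as strain C57BL/6 and described as separate mice. The labels give neither the age of the animals nor the exons removed from Tbx21, the gene of the transcription factor T-bet.

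Glycolysis splits glucose into pyruvate, the pentose phosphate pathway draws off glucose phosphate to make NADPH and ribose, and the TCA cycle oxidises the acetyl group made from pyruvate inside mitochondria. A mature red cell has lost its mitochondria and lives on glycolysis and the pentose phosphate pathway alone. The red cell line uses particular isoforms for this, among them the pyruvate kinase of Pklr, the hexokinase of Hk1 and the bisphosphoglycerate mutase of Bpgm, whose product loosens the grip of haemoglobin on oxygen. MEP still have mitochondria, and their enzymes of both compartments can be read side by side.

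Values are log2 signals of 1 probe set per gene, given per array, and differences are knockout minus wild type with the SE and 95% interval of limma's fit over all 41345 probe sets. Array medians lay between 6.44 and 6.53. The erythroid factor gene Gata1 read 10.94 to 11.00 in knockout and 10.91 to 11.00 in wild-type arrays, and the progenitor receptor gene Kit 11.99 to 12.03 in knockout and 11.95 to 12.07 in wild-type arrays. The B cell receptor gene Ighm read 8.21 to 9.45 in knockout and 7.40 to 8.68 in wild-type arrays. Over the 6 arrays, Cd79a read 6.36 to 7.79 and Ebf1 6.37 to 7.995. Cd79b read 6.88 to 7.22 and Pax5, near the array medians, 6.41 to 6.89. Whether B cells were present is unknown here, because signal above background is unknown. Tbx21 read 6.41, 6.60 and 6.46 in knockout and 6.54, 6.62 and 6.60 in wild-type arrays, so it gave no check of the genotype. Knockout replicates 1 and 2 and wild-type replicate 1 carried both Xist, the RNA of the inactive X chromosome, and Y-linked Eif2s3y signal, which a single mouse would not carry together. Whether each array is a single animal is therefore unknown here, and results were also computed without these 3 arrays. p-values, SEs and intervals of limma rest on the spread between the 6 arrays within groups, drawn towards a spread shared by all probe sets. For a gene of small spread the SE is therefore larger than its own arrays would give.

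None of the 38 measured enzyme and transporter genes passed a test for a difference between T-bet knockout and wild-type MEP. Of the 38 measured genes, 0 passed limma's adjusted p of 0.05, where 0 of all probe sets did, 0% of 41345. At an unadjusted p under 0.05 there were also 0, against 3.13% of all named genes (1.44% higher and 1.70% lower in the knockout), and the smallest was that of Pgam1 at 0.0585 (limma adjusted p = 1). Positive differences were found for 18 and negative ones for 20, near the 48.2% of all genes with a positive difference. This split rested on single arrays, with 28 positive differences without knockout replicate 1, 12 without knockout replicate 3 and 13 without wild-type replicate 1. The median difference was -0.0066, beside -0.0045 over all genes, and the median size of a difference without its sign was 0.058, beside 0.075.

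The arrays bounded these differences closely. All 38 measured genes had a 95% interval that stayed inside 1.5-fold up or down, where 85.9% of all genes and 93.1% of those outside the dim 30% had an interval as narrow. Dim here means a mean in the lowest 30% of probe sets, where a change of signal can understate a change of RNA, and Ldhb was the sole dim gene of the 38. The widest departure allowed was that of Pgam1, from -0.55 to 0.01. Knockout and wild-type arrays did not overlap for 1 gene, Pgls, where 8.70% of all genes did not overlap. Without the 3 arrays of mixed signal, which leaves 1 knockout array, 30 of the 38 intervals stayed within 1.5-fold, against 49.9% of all genes.

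**Figure D1:**
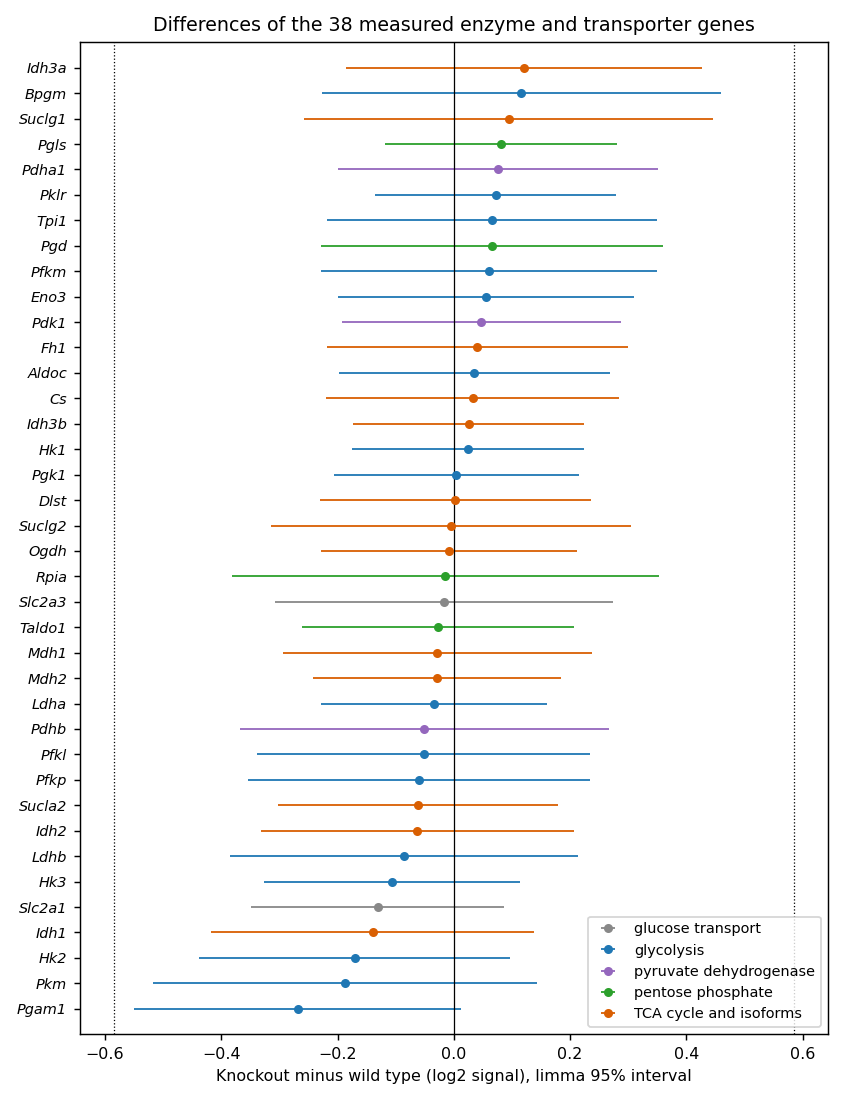
Difference in log2 signal, knockout minus wild type, of each of the 38 measured genes (points) with limma's 95% interval (lines), sorted by size and coloured by step of the pathway; dotted lines mark 1.5-fold. All 38 intervals lie inside the dotted lines and all 38 include 0, and the differences run from 0.12 for Idh3a to -0.27 for Pgam1.

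Glucose enters blood cells through facilitative transporters, of which Slc2a1 encodes the widely used form and Slc2a3 a form of high affinity. Slc2a1 differed by -0.13 (SE 0.09) and Slc2a3 by -0.02 (SE 0.12). A further probe set of Slc2a1 differed by 0.07 (SE 0.10), so its probe sets did not share a direction.

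Hexokinase traps glucose in the cell as glucose phosphate, and Hk1 is the isoform that red cells keep. Hk1 read 10.53, 10.55 and 10.58 in knockout arrays and 10.52, 10.57 and 10.48 in wild-type arrays. The arrays overlapped within a narrow band, and the difference was 0.02 (SE 0.08, 95% interval -0.17 to 0.22). Hk2, the hexokinase of muscle and of many growing cells, read 7.16, 7.27 and 7.38 in knockout arrays and 7.38, 7.60 and 7.34 in wild-type arrays. Knockout replicate 3 lay level with wild-type replicate 1 and above wild-type replicate 3, and the difference was -0.17 (SE 0.11, 95% interval -0.44 to 0.10). Without wild-type replicate 2 it was -0.09, and -0.08 when arrays were blocked by which sex-linked signals they carried. Hk3, a hexokinase known from myeloid cells, differed by -0.11 (SE 0.09).

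Pyruvate kinase makes the ATP of the last step of glycolysis, and the Pklr form serves red cells and liver while the Pkm form serves most other tissues. Pklr read 12.12, 12.19 and 12.21 in knockout arrays and 12.09, 12.17 and 12.05 in wild-type arrays. Wild-type replicate 2 fell among the knockout values, and the difference was 0.07 (SE 0.09, 95% interval -0.14 to 0.28). Pkm read 8.65, 8.54 and 8.79 in knockout arrays and 8.93, 8.60 and 9.02 in wild-type arrays. Wild-type replicates 1 and 3 were the highest of the 6 and wild-type replicate 2 lay below knockout replicates 1 and 3, giving a difference of -0.19 (SE 0.14, 95% interval -0.52 to 0.14). Leaving out 1 array moved the difference of Pkm between -0.10, without wild-type replicate 3, and -0.31, without wild-type replicate 2 (unadjusted p = 0.0469, limma adjusted p = 1). Without the 3 arrays of mixed signal it was -0.02.

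Markers of the megakaryocyte line were read beside Pkm. The integrin gene Itga2b (CD41) lies on chromosome 11, as does Tbx21. It read 7.25, 7.15 and 7.34 in knockout and 7.50, 7.41 and 7.86 in wild-type arrays. Knockout replicate 2 was lowest and wild-type replicate 3 highest, as for Pkm. The megakaryocyte marker Vwf also had these lowest and highest arrays. Of genes linked to T and natural killer cells, Nkg7 and Lat had the same lowest and highest arrays, while Cd3e and Cd3g did not. Pf4 was lowest in knockout replicate 1 and highest in wild-type replicate 3, and Gp9, which differed by -0.02, was highest in knockout replicate 3. The mean deviation of the 4 measured megakaryocyte markers, Itga2b, Pf4, Gp9 and Vwf, stood at -0.23, -0.24 and 0.07 in the knockout arrays, by replicate number, against 0.06, 0.01 and 0.32 in the wild-type arrays. Their part in the values of Pkm was not tested. In RNA of a sorted population, fewer cells of a type and less RNA per cell cannot be told apart.

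Bisphosphoglycerate mutase, encoded by Bpgm, and phosphoglycerate mutase, encoded by Pgam1, are related proteins that act on neighbouring compounds of lower glycolysis. Bpgm read 7.34, 7.60 and 7.86 in knockout arrays and 7.42, 7.52 and 7.52 in wild-type arrays. The knockout arrays held both the lowest and the highest of the 6 values, and the difference was 0.12 (SE 0.14, 95% interval -0.23 to 0.46). Without knockout replicate 3 it was -0.014, and without knockout replicate 1 it was 0.25. The mean deviation of 7 measured erythroid and MEP markers was -0.08, 0.06 and 0.11 in knockout arrays, by replicate number, against -0.06, -0.0043 and -0.02 in wild-type arrays, so it too was lowest in knockout replicate 1 and highest in knockout replicate 3. Its members were not alike, since Epb42, a gene of the red cell membrane skeleton, and Epor, the erythropoietin receptor gene, were highest in knockout replicate 3, Gata1, Klf1 and Tfrc in knockout replicate 2, Kit in wild-type replicate 1 and Slc4a1, the anion exchanger gene, in wild-type replicate 3. Their part in the values of Bpgm was not tested.

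Pgam1 read 8.14, 8.23 and 8.07 in knockout arrays and 8.21, 8.52 and 8.51 in wild-type arrays. Wild-type replicates 2 and 3 lay above all knockout arrays, wild-type replicate 1 among them. The difference of -0.27 (SE 0.12, 95% interval -0.55 to 0.01) was the lowest of the 38. It rests on a probe set whose place on the array is doubtful. The gene lies on chromosome 19, but the 10 named probe sets nearest to this probe set in ID order all belong to genes of chromosome 3. For the other 37 genes most such neighbours lay on the gene's own chromosome. The further probe set of Pgam1, whose neighbours lay on chromosome 19, read 7.37, 7.47 and 7.35 in knockout arrays and 7.54, 7.42 and 7.35 in wild-type arrays. Its groups overlapped, with a difference of -0.04 (SE 0.09). Which copy of the sequence either probe set reads was not tested.

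**Figure D2:**
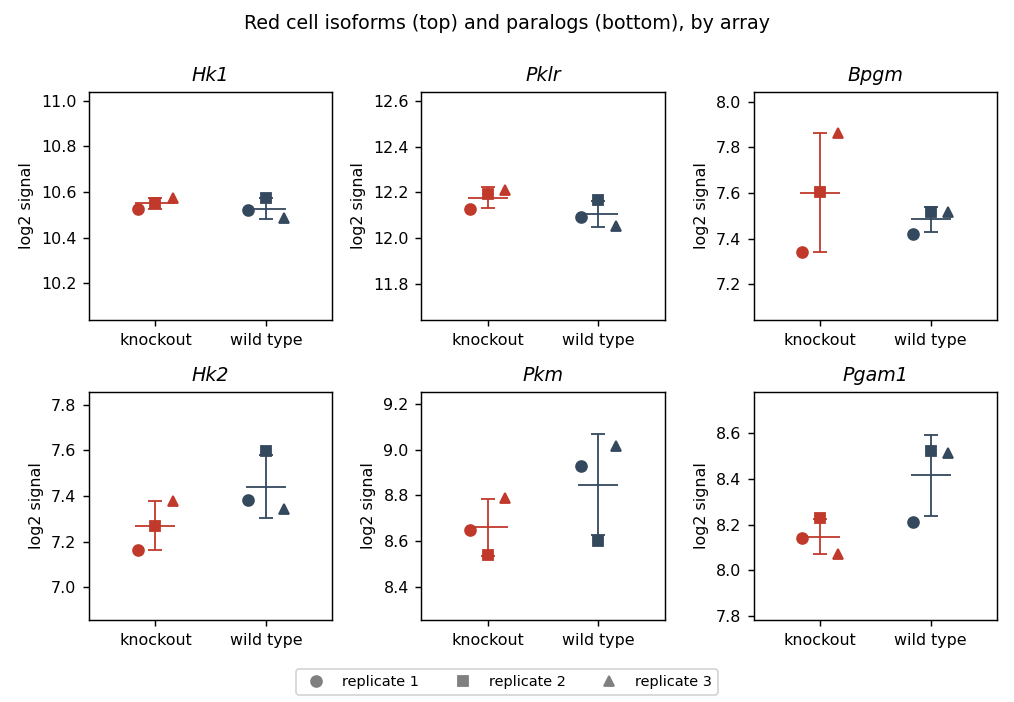
Log2 signal in each array of the red cell isoforms Hk1, Pklr and Bpgm (top row) and of their paralogs Hk2, Pkm and Pgam1 (bottom row), with knockout left of wild type; marker shapes give the replicate number, horizontal bars the mean and whiskers the SD of 3 arrays. Each panel spans 1 log2 unit, and knockout and wild-type arrays overlap in all 6 panels.

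Promoter sequences are shown for Pklr, because its isoforms arise from separate starts, and for Bpgm and Pgam1. By the probe sets used, Bpgm and Pgam1 were the pair with the largest shift of an isoform against its paralog. With the further probe set of Pgam1 the shift of this pair was 0.15, below the 0.26 of Pklr against Pkm. The sequences are RefSeq windows of build GRCm38.p6, written 5′ to 3′ on the plus strand. Each runs from 250 bases before to 50 bases after an annotated start. Capitals mark GATA, the core bound by GATA factors, CACCC, the core bound by Kruppel-like factors, and ACGTG, the core bound by hypoxia-inducible factors, each searched on both strands. Pklr has both an upstream and a downstream annotated start, known in human and rat as the red cell and the liver start.
Pklr, upstream start, chr3:89135892-89136191: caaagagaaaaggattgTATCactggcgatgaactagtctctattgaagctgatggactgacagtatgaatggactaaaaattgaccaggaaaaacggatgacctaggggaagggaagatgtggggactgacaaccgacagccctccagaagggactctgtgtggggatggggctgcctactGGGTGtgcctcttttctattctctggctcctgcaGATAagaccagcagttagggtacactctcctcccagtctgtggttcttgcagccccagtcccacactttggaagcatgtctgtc
Pklr, downstream start, chr3:89136373-89136672: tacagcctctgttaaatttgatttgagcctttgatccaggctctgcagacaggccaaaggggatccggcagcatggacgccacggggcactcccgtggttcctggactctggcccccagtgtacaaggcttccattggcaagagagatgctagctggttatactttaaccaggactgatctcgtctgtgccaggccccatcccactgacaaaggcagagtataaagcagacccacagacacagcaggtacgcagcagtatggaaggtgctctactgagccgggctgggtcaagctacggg
Bpgm, chr6:34476106-34476405: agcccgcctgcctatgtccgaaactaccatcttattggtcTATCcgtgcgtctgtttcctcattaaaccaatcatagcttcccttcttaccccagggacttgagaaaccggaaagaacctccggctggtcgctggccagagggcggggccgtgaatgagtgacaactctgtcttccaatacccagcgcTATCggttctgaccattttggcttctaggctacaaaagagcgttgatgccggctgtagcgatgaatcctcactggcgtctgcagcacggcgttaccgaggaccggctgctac
Pgam1, chr19:41911621-41911920: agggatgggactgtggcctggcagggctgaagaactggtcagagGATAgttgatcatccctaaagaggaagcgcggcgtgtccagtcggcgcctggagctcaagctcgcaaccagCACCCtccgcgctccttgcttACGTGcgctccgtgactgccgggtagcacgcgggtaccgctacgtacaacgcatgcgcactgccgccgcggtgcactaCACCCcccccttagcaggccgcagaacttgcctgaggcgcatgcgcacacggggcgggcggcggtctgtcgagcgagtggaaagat

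The upstream Pklr window held 2 GATA matches and 1 CACCC match, and the downstream window held neither of them. Which of the Pklr starts the probe set reads is unknown here. The Bpgm window held 2 GATA matches and no match to the other cores, while the Pgam1 window held 1 GATA, 2 CACCC and 1 ACGTG match. RefSeq windows were found for 36 of the 38 genes, 52 windows in all. GATA was present in 50% of these against 57.9% of all 32851 windows, CACCC in 57.7% against 57.5%, and ACGTG in 36.5% against 19.6%. The windows of the 38 genes also had a higher median GC content, 59.7% against 52.7%. The part of base composition in these shares was not tested. A match is a run of letters and does not show that a factor binds.

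Whether an isoform moved relative to its paralog was asked within each array, as the log2 signal of the isoform minus that of the paralog, so that a shift between groups shows unequal change only. A total of 7 pairs had both genes measured, and the exact permutation test over 3 against 3 arrays (2-sided) cannot go below p = 0.1. Hk1 relative to Hk2 stood 0.18, 0.10 and 0.01 from the midpoint of the groups in knockout arrays and -0.04, -0.21 and -0.04 in wild-type arrays. All 3 knockout arrays lay above all 3 wild-type arrays, a shift of 0.20 (exact permutation p = 0.1, adjusted over 7 pairs 0.467). After a further quantile normalization the shift was 0.225 (exact permutation p = 0.2). Without wild-type replicate 2 it was 0.14 (exact permutation p = 0.2).

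Bpgm relative to Pgam1 shifted by 0.39 (exact permutation p = 0.2), with knockout arrays at -0.06, 0.11 and 0.53 and wild-type arrays at -0.05, -0.27 and -0.26. Without knockout replicate 3 the shift was 0.22, and with the further probe set of Pgam1 it was 0.15 (exact permutation p = 0.5). Pklr relative to Pkm shifted by 0.26 (exact permutation p = 0.3), with knockout arrays at 0.09, 0.27 and 0.03 and wild-type arrays at -0.22, 0.18 and -0.35. All 3 shifts of a red cell isoform relative to its paralog were thus positive in value. No pair could have passed at 0.05, since the exact permutation test cannot go below p = 0.1. Whether the 3 pairs share a shift was not tested. The remaining pairs shifted by -0.11 for Slc2a1 against Slc2a3, 0.05 for Ldha against Ldhb, -0.11 for Pfkl against Pfkm and 0.01 for Pfkl against Pfkp, with exact permutation p between 0.2 and 1.

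**Figure D3:**
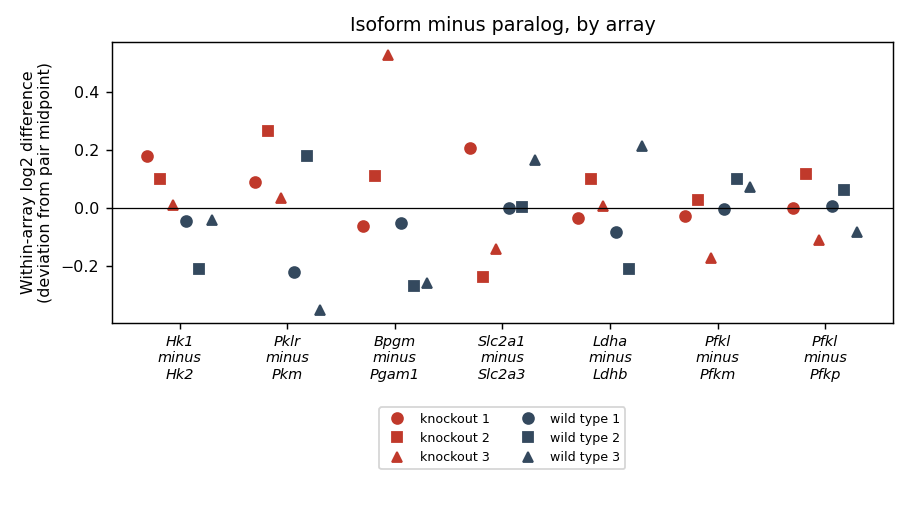
Within-array log2 signal of an isoform minus that of its paralog, as deviation from the midpoint of the group means, for 7 pairs; red markers are knockout and dark markers wild-type arrays, and shapes give the replicate number. Hk1 minus Hk2 is the sole pair in which knockout and wild-type arrays do not overlap, and the largest deviation is that of Bpgm minus Pgam1 in knockout replicate 3, 0.53.

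The other glycolytic enzymes kept to narrow differences. Phosphofructokinase, the committed step, is built from subunits of which Pfkm differed by 0.06 (SE 0.12), Pfkl by -0.05 (SE 0.12) and Pfkp by -0.06 (SE 0.12). Aldoc, an aldolase best known from brain, differed by 0.03 and the triose phosphate isomerase gene Tpi1 by 0.07. Pgk1, the X-linked phosphoglycerate kinase gene, read 10.51 to 10.63 in knockout and 10.50 to 10.62 in wild-type arrays, almost the same range in both groups. Eno3, the muscle enolase, differed by 0.06. Lactate dehydrogenase turns pyruvate to lactate. Its Ldha subunit read 8.47, 8.52 and 8.51 in knockout arrays and 8.52, 8.54 and 8.55 in wild-type arrays. The groups met at 8.52 and differed by -0.03 (SE 0.08), and the dim Ldhb subunit differed by -0.09 (SE 0.13). Over the 16 measured glycolysis genes 8 differences were positive and 8 negative, with a median of -0.015.

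Pyruvate dehydrogenase feeds the TCA cycle and is switched off by pyruvate dehydrogenase kinases. The X-linked subunit gene Pdha1 differed by 0.08 (SE 0.12), Pdhb by -0.05 (SE 0.13) and the kinase gene Pdk1 by 0.05 (SE 0.10). In the pentose phosphate pathway, the lactonase gene Pgls read 8.44, 8.43 and 8.46 in knockout arrays and 8.30, 8.40 and 8.38 in wild-type arrays. All 3 knockout arrays lay above the wild-type arrays, by a difference of 0.08 (SE 0.08, unadjusted p = 0.364), and its further probe set differed by -0.03 (SE 0.10). Pgd, which makes NADPH, differed by 0.07, the ribose phosphate isomerase gene Rpia by -0.01 and the transaldolase gene Taldo1 by -0.03. The median of these 4 genes was 0.025.

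TCA cycle genes had the highest and some of the smallest differences. Idh3a, a subunit of the NAD-dependent isocitrate dehydrogenase, read 10.81, 11.16 and 11.16 in knockout arrays and 10.80, 10.99 and 10.97 in wild-type arrays. Replicate 1 was the lowest of its group in both, and the difference was 0.12 (SE 0.13, 95% interval -0.19 to 0.43). It was 0.24 without knockout replicate 1 and 0.06 to 0.07 when wild-type replicate 1 or either of the other knockout arrays was left out. Suclg1, a subunit of succinyl-CoA ligase, read 8.89, 9.12 and 9.17 in knockout arrays and 8.72, 9.18 and 8.998 in wild-type arrays. The wild-type arrays held both the lowest and the highest value, with a difference of 0.09 (SE 0.15). Its partner subunits Suclg2 and Sucla2, which set the use of GTP or ATP, differed by -0.0046 and -0.06.

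Citrate synthase (Cs) differed by 0.03, the Idh3b subunit by 0.03 and fumarase (Fh1) by 0.04. The oxoglutarate dehydrogenase genes Ogdh and Dlst differed by -0.0085 and 0.0028. The mitochondrial malate dehydrogenase gene Mdh2 and its cytosolic counterpart Mdh1 both differed by -0.03. Of the NADP-dependent isocitrate dehydrogenases, the mitochondrial Idh2 differed by -0.06 (SE 0.11) and the cytosolic Idh1 by -0.14 (SE 0.12). Over these 13 genes, cytosolic isoforms included, 6 differences were positive and 7 negative, with a median of -0.0046.

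Within both groups replicate 1 tended to read lowest. For 29 of the 38 genes (76.3%) the lowest of the 6 values was that of knockout replicate 1 (16 genes) or wild-type replicate 1 (13 genes), and over all named genes this share was 38.7%. Among the 13 TCA genes it was 12. Of all 22180 named genes 5884 were dim, against 1 of the 38, and the share among genes of like signal was not computed. The mean deviation of the TCA genes from the midpoint of each gene was -0.12, 0.06 and 0.06 in the knockout arrays, by replicate number, against -0.10, 0.06 and 0.04 in the wild-type arrays. Both replicate 1 arrays thus lay below the other 4, which stood between 0.04 and 0.06. Means of some cell marker lists moved with the same arrays, though their single markers were not alike. The mean of the 7 erythroid and MEP markers was lowest there, at -0.08 in knockout and -0.06 in wild type. In the other 4 it was -0.02 to 0.11. Gata1, Tfrc and Epb42 read lower in both replicate 1 arrays than in the other 4, while Klf1, Epor, Kit and Slc4a1 did not. The mean of the 3 stroma and endothelium markers was highest there, at 0.21 in knockout and 0.13 in wild type. In the other 4 it was -0.18 to 0.04. Cxcl12 read 7.79 in knockout replicate 1 and 7.39 in wild-type replicate 1, against 6.47 to 7.13 in the other 4. Col1a2 was the highest of its group in both, but read lower in knockout replicate 1 (6.73) than in any wild-type array. Cdh5 was lowest in wild-type replicate 1. The part of these cells in the values was not tested.

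The same order held for the pyruvate dehydrogenase genes, at -0.16, 0.10 and 0.09 in knockout and -0.12, 0.03 and 0.06 in wild-type arrays. The pentose phosphate genes stood at -0.11, 0.06 and 0.09 in knockout and -0.12, 0.10 and -0.02 in wild-type arrays. Glycolysis genes stood at -0.10, -0.01 and 0.06 in knockout and -0.02, 0.04 and 0.03 in wild-type arrays, so wild-type replicate 1 was less apart there. Both replicate 1 arrays also had the highest array medians, 6.53 in knockout and 6.51 in wild type, where the other 4 lay between 6.44 and 6.47. After a further quantile normalization the TCA genes still stood at -0.08 in both replicate 1 arrays and at 0.03 to 0.05 in the other 4. What the number 1 shares between the groups is not stated in the labels. Both replicate 1 arrays carried Xist and Eif2s3y signal together, as did knockout replicate 2. The part of this mixed signal and of any shared handling was not tested.

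**Figure D4:**
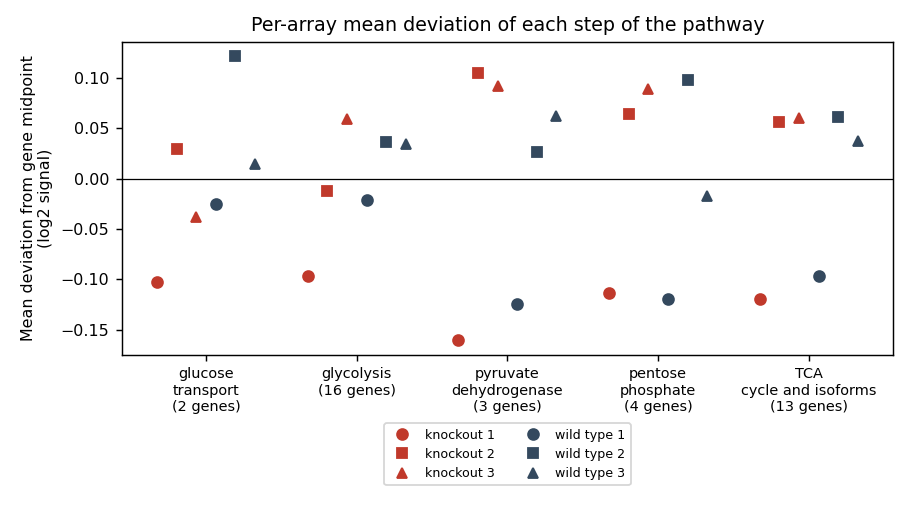
Mean deviation of log2 signal from the midpoint of the group means, averaged over the genes of each step of the pathway, in each array; red markers are knockout and dark markers wild-type arrays, and circles are replicate 1. For TCA genes both circles lie near -0.1 (-0.12 in knockout and -0.10 in wild type), below the other 4 arrays at 0.04 to 0.06.

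A further list of central carbon genes outside the 43, covering pyruvate and lactate carriers, phosphofructokinase regulators, pyruvate dehydrogenase kinases and phosphatases and remaining TCA enzymes, gave 59 measured genes of 66 listed. Of these 0 passed limma's adjusted p of 0.05 in either direction, and 0 had an unadjusted p under 0.05, against 3.13% of all genes. Positive differences numbered 25 and negative ones 34, with a median of -0.01. Those of smallest p were Pdk2, Hkdc1 and Pgam2. Pdk2, a kinase that switches pyruvate dehydrogenase off, read 8.70, 8.79 and 8.90 in knockout arrays and 8.63, 8.57 and 8.54 in wild-type arrays. Its groups did not overlap, as for 3 of the 59 genes and 8.70% of all genes, and the difference was 0.22 (SE 0.09, unadjusted p = 0.055, limma adjusted p = 1). Hkdc1, a hexokinase domain gene, differed by -0.19 (SE 0.09) and Pgam2, the muscle phosphoglycerate mutase, by 0.18 (SE 0.11). Pdk2 and Pgam2 lie on chromosome 11, the chromosome of the knocked-out gene Tbx21. The part of this shared chromosome in their differences was not tested.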

How the data were processed

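The labels describe total RNA of flow-sorted MEP, turned into biotin-labelled cRNA for Affymetrix arrays, 3 knockout and 3 wild type. The deposited values are log2 signals per probe set, and the submitters' processing notes name Affymetrix Expression Console, version 1.4.1.46. How the authors corrected background, normalized and summarised probes is not given in the sources used. The log base was inferred from the largest value, 14.2, and values were used as deposited. Neither detection calls nor probe sequences were used, so signal above background is unknown; the number of arrays limits precision.

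Names came from the array's annotation table, with 23521 probe sets of 1 symbol. Differences were fitted with limma 3.58.1 (lmFit, eBayes) in R 4.3.3, and p-values were adjusted by Benjamini-Hochberg across all 41345 probe sets. Values in every array are given for Hk1, Pklr, Bpgm, Hk2, Pkm and Pgam1, for members with an unadjusted p under 0.05, and for the 3 highest and 3 lowest differences. Of the further list, the 3 of smallest p were named. Tbx21, Itga2b, Ighm, Pgls, Ldha and Pdk2 values, and those of other genes given in every array or as ranges, were chosen for the text with their values known. Members and lists were chosen with earlier results of these data known. The fit was tested on simulated data.

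Deviations from group means correlated between same-numbered arrays at 0.285, 0.116 and 0.115 for numbers 1 to 3 over 1 probe set per gene, each above 0.1, so the numbers were treated as pairs in an alternative fit. Alternatives were other scalings, array weights, limma-trend, probe set filters, blocks and leaving out arrays.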

Additional observations from a re-analysis of the deposited data

How the results depend on the processing

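None of the 38 genes passed limma's adjusted p of 0.05 in any of 17 alternatives, the lowest adjusted p being 0.568 (Pgam1 without the 3 arrays of mixed sex-linked signal); nor did any of the 59 further genes. The median of all 38 genes ran from -0.039 without wild-type replicate 1 to 0.048 without knockout replicate 1. For the same omissions that of the TCA genes ran from -0.056 to 0.048. The glycolysis median ran from -0.033 without wild-type replicate 1 to 0.039 without the mixed-signal arrays. The pentose phosphate median ran from -0.021 without wild-type replicate 1 to 0.10 with the sex-linked class as a block. Each of these medians thus took both signs. With replicate number as a replicate block (paired fit) 0 genes passed at the unadjusted p of 0.05 and the lowest adjusted p was 0.775, so the block changed no call. The omission of the mixed-signal arrays, the other probe set of Pgam1 and the count of intervals were chosen after seeing the data.

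At an unadjusted p under 0.05 there was 1 gene, Pgam1, after quantile normalization, with limma-trend, with single-symbol probe sets only, without dim probe sets, without the mixed-signal arrays and without wild-type replicate 1. It was 1 gene, Pkm, without wild-type replicate 2, so the range over left-out arrays was 0 to 1. Fewer probe sets enter the fit in the filtered alternatives; for the others the cause was not tested. Intervals within 1.5-fold numbered 36 to 38 when 1 array was left out.

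Of 645 differences of single genes under the alternatives, 61 changed sign, in 22 genes, all short of the threshold. Array weights gave Pfkl 0.011, Suclg2 0.038, Slc2a3 0.053, Rpia 0.051 and Pgk1 -0.0012. Quantile normalization gave Ogdh 0.0068, and the mean of all probe sets gave Suclg2 0.067. With the sex-linked class as a block, which takes wild-type replicate 2 out of the comparison, Taldo1 was 0.029, Suclg2 0.058, Slc2a3 0.041, Rpia 0.092, Aldoc -0.0066, Pdhb 0.018, Ogdh 0.025, Mdh1 0.024 and Idh2 0.035. Without the mixed-signal arrays, where the lone knockout array is assumed to vary like the wild-type arrays, Taldo1 was 0.061, Pfkp 0.039, Ogdh 0.086, Mdh1 0.10, Slc2a3 0.0062, Idh1 0.082, Fh1 -0.052, Dlst -0.020, Pdhb 0.013 and the shift of Pfkl against Pfkp -0.099. The cause was not tested.

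Leaving out 1 array at a time moved Aldoc between -0.0057 and 0.091, Bpgm between -0.014 and 0.25, Cs between -0.023 and 0.10, Dlst between -0.056 and 0.048, Eno3 between -0.020 and 0.10 and Fh1 between -0.027 and 0.092. Idh2 ran between -0.14 and 0.014, Ldhb between -0.20 and 0.0082, Mdh1 between -0.11 and 0.055, Mdh2 between -0.061 and 0.0035, Ogdh between -0.055 and 0.034 and Pdhb between -0.13 and 0.056. Pfkl ran between -0.13 and 0.047, Pfkm between -0.017 and 0.17, Pfkp between -0.14 and 0.038, Pgk1 between -0.027 and 0.036, Rpia between -0.12 and 0.11 and Slc2a3 between -0.095 and 0.081. Suclg1 ran between -0.030 and 0.20, Suclg2 between -0.10 and 0.073, Taldo1 between -0.079 and 0.020, the shift of Ldha against Ldhb between -0.041 and 0.17 and that of Pfkl against Pfkp between -0.049 and 0.065. Among genes that kept their sign, Idh3a ran between 0.061 and 0.24, Hk2 between -0.22 and -0.092, Pkm between -0.31 and -0.10 and Pgam1 between -0.37 and -0.22.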
